A study of Mus musculus with 16 samples.

Results

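The response of the proximal jejunum to gamma rays was measured by RNA sequencing in mice kept on a methionine-supplemented diet. The comparison was between the 4 libraries labelled with this diet and 8.5 Gy and the 4 labelled with it and 0 Gy, which are 8 of the 16 libraries of the study. The other 8 crossed the same doses with a methionine-adequate diet, and they are used only where the diets are set side by side. Every group came from males of the inbred strain CBA/J at an age of 8 weeks, and the labels name no transgene and no further agent. The design text puts the supplement at 300% and names 6 days, but it does not say whether these count from the start of the diet or from irradiation. The labels give no animal, batch or date behind a library, so that p-values measure the spread between libraries.

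The lining of the jejunum is renewed from stem cells at the base of the crypts, pits between the villi. Their progeny divide, move up the villus and mature into absorptive enterocytes, mucus-secreting goblet cells, hormone-secreting enteroendocrine cells and chemosensory tuft cells, while Paneth cells stay at the crypt base and secrete antimicrobial proteins. Ionizing radiation breaks DNA, activates the transcription factor p53 and kills dividing crypt cells and lymphocytes, and surviving crypt cells then rebuild the epithelium. Methionine is an essential amino acid and the source of S-adenosylmethionine, the methyl donor for DNA, RNA and proteins.

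The unirradiated libraries held 8.77 to 9.67 M counts, and irradiated replicates 1 to 4 held 3.43, 15.51, 15.27 and 11.78 M. On the first principal component of the 8 libraries (43.7% of the variance) the unirradiated libraries scored between -46.3 and -24.4 and the irradiated ones 74.9, 36.8, 34.5 and 2.3. Irradiated replicate 1, the shallowest, and irradiated replicate 4 thus stood at the ends of their group. All 45 listed enterocyte genes passed the filter on low counts. So did 8 of 11 genes listed for ileal enterocytes, while the ileal genes Fabp6, Slc10a2 and Fgf15 did not. Levels are given in CPM, the usual depth-scaled count, on TMM-scaled library totals and in the order of replicates 1 to 4.

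The quasi-likelihood F test of edgeR was run on 16558 genes, of which 1329 (8.03%) were higher and 1194 (7.21%) lower after irradiation at an adjusted p under 0.05. The adjusted p is Benjamini-Hochberg over all genes tested and is used throughout. Among the called genes, 527 rose and 369 fell by more than 2-fold, and 36 rose and 29 fell by more than 8-fold. The median log2 fold change over all genes tested was 0.007. Leaving out a single library gave between 805 and 1821 higher genes and between 627 and 1806 lower ones. The highest counts of both came without irradiated replicate 4, and the lowest without unirradiated replicate 1 (higher genes) or irradiated replicate 2 (lower genes). Paneth cell and antimicrobial genes were among the largest rises, and hemoglobin and interferon-stimulated genes among the largest falls. In bulk tissue, fewer cells of a type and less of an RNA per cell cannot be told apart, for any of the cell type genes described here.

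**Figure D1:**
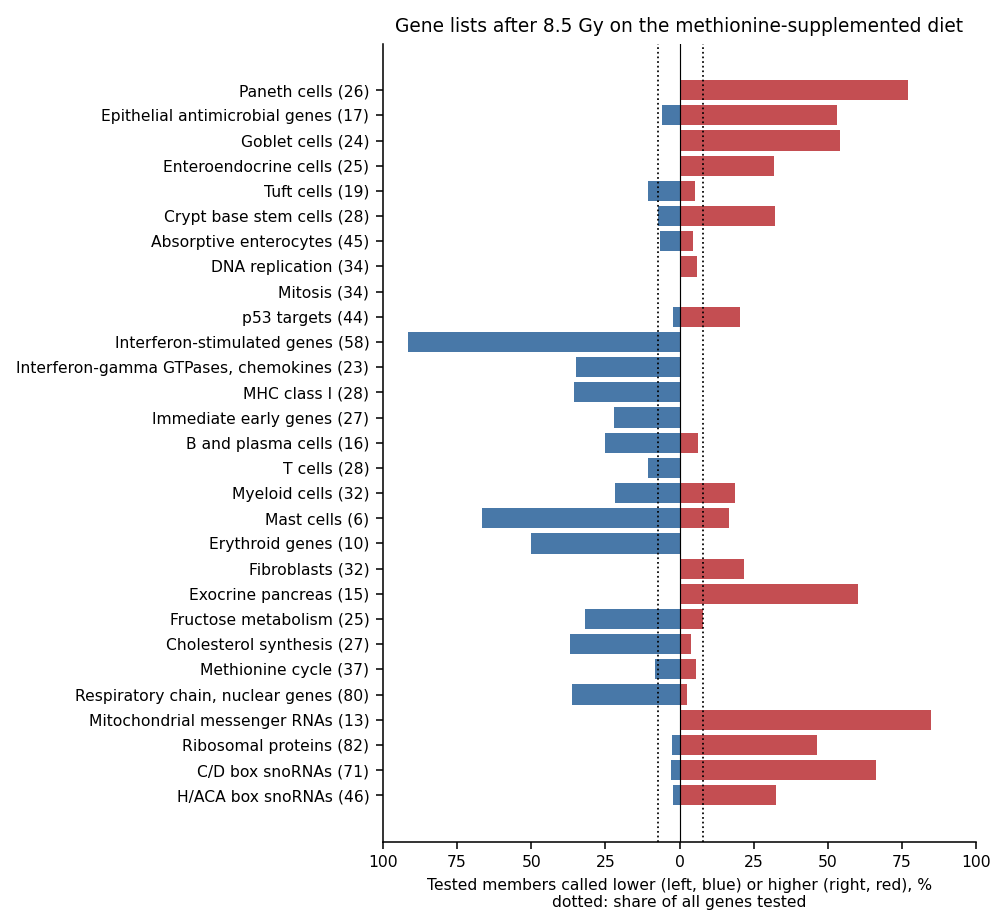
Share of the tested members of each gene list that were called higher (red, right) or lower (blue, left) at 8.5 Gy against 0 Gy on the supplemented diet, with the number of members tested in brackets. The dotted lines mark 8.03% higher and 7.21% lower over all genes tested, and the interferon-stimulated list reached 53 of 58 members lower while the Paneth cell list reached 20 of 26 higher.

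Most genes of Paneth cells rose. Of 26 tested members of the Paneth list, 20 were higher and 0 lower, with a median log2 fold change of 1.65. Mptx2, a pentraxin made by Paneth cells, stood at 1.15, 1.85, 3.6 and 1.96 CPM in the unirradiated libraries and at 168, 134, 150.0 and 223 CPM in the irradiated ones. It rose by 6.29 ± 0.44 on the log2 scale (± SE, adjusted p = 9.87e-07), and its lowest irradiated library lay far above its highest unirradiated one. Its neighbour in function, Mptx1, went from 3.8 ± 1.31 to 52.9 ± 8.39 CPM (mean ± SD, n = 4 per group), a rise of 3.79 ± 0.41. Among the alpha-defensins, pore-forming peptides stored in Paneth granules, Defa5 was at 28.2, 27, 107 and 42 CPM without and 1790.5, 809, 1058 and 883 CPM with irradiation. Unirradiated replicate 3 was the highest of its group, yet it stayed below every irradiated library (4.47 ± 0.46, adjusted p = 3.05e-05). Defa35 rose by 3.3 ± 0.22 and Defa22 by 2.15 ± 0.23, with no overlap between the doses. Defa5 stood at a log2 change of 5.13 without unirradiated replicate 3.

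The other defence proteins of the granules changed in the same direction. Lyz1, the lysozyme of Paneth cells, was measured at 1109, 997, 1400.2 and 929.5 CPM and at 5131, 3349, 4064 and 3954 CPM after irradiation, so that the groups were apart (1.9 ± 0.21, adjusted p = 4.85e-05). Pla2g2a, a secreted phospholipase that kills bacteria, rose by 2.22 ± 0.21, and Mmp7, the protease that activates pro-defensins, by 2.04 ± 0.19. Cfi, a complement protease, went from 1.75 ± 0.347 to 15.2 ± 2.19 CPM, and Pla2g5, another secreted phospholipase, from 0.758 ± 0.547 to 9.18 ± 2.96 CPM. Both are outside the list and were named for the size of their rise (3.1 ± 0.20 and 3.54 ± 0.36). The 6 Paneth genes that were not called included Defa23, which stood at 59.9, 61.4, 4.3 and 71.8 CPM without and 0, 0, 0 and 12.7 CPM with irradiation (adjusted p = 0.0525). It is named here because it went against the list, after its values were seen. Alpha-defensin genes are near copies of each other and RSEM shares reads among them, so that a value for 1 defensin may hold reads of another. Defa23 passed the threshold without unirradiated replicate 3 (adjusted p = 0.0306) and without irradiated replicate 4 (adjusted p = 0.00762).

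Many genes for antimicrobial proteins of enterocytes and other epithelial cells also rose, with 9 of 17 tested members higher and 1 lower (median 0.93). Reg3g, a lectin that binds Gram-positive bacteria, was at 55.3, 88.7, 138 and 90.4 CPM before and 2646, 2229.7, 1429 and 1972 CPM after 8.5 Gy. Every irradiated library was far above every unirradiated one, and the fitted rise was 4.47 ± 0.34 (adjusted p = 9.87e-07). Its close relative Reg3b rose by 5.59 ± 0.47, and reads of both can be shared. Retnlb, a bactericidal protein of goblet cells, rose by 2.89 ± 0.21, Duox2, an oxidase that makes hydrogen peroxide at the cell surface, by 2.65 ± 0.31, and Saa3, an acute-phase protein, by 4.78 ± 0.74. Saa3 was close to absent without irradiation (0, 0.103, 0.20 and 0 CPM). Slpi, a protease inhibitor of mucus, was the member that fell (log2 -1.45), and it is named as the exception. Chil1, a chitinase-like protein of injured epithelium, and Cpn2, a subunit of carboxypeptidase N, rose by 3.84 ± 0.57 and 3.82 ± 0.56. Chil1 stood at a log2 change of 4.61 without unirradiated replicate 2 and Saa3 at 5.7 without unirradiated replicate 3.

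Goblet cell genes rose in part. Of 24 members tested, 13 were higher and 0 lower, with a median of 0.59. Spink4, a peptide packed with mucus, stood at 77.2, 106, 99.6 and 74.3 CPM without and 346, 309, 362 and 299.6 CPM with irradiation, without overlap (1.88 ± 0.15, adjusted p = 9.87e-07). Creb3l4, a transcription factor of secretory cells, rose by 1.37 ± 0.21, Agr2, the disulfide isomerase needed for mucin folding, by 0.79 ± 0.15, Klk1, a kallikrein protease, by 0.78 ± 0.13, and Bcas1 by 0.79 ± 0.13. Muc2, the gel-forming mucin itself, had no overlap between doses (1908, 1537, 1827 and 1916 against 2290.0, 1947, 2501 and 3353 CPM) but missed the threshold at 0.49 ± 0.18 (adjusted p = 0.084).

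Enteroendocrine genes showed 8 of 25 members higher and 0 lower (median 0.48). Chga, a granule protein of hormone-secreting cells, was at 55.1, 49.1, 70.8 and 45.9 CPM and, after irradiation, at 82.7, 77.1, 98.6 and 99.2 CPM. All 4 irradiated libraries were above the unirradiated ones (0.70 ± 0.15, adjusted p = 0.00468). Chgb, a second granin, rose by 0.71 ± 0.18, Scg5, a chaperone of prohormone convertase, by 0.94 ± 0.25, Tph1, the enzyme that starts serotonin synthesis, by 0.84 ± 0.22, and Reg4, a lectin of these cells, by 0.93 ± 0.18. The count rested on several libraries: it was 4 without unirradiated replicate 1, 2 or 4 and 3 without irradiated replicate 2 or 3. Of 19 tuft cell genes, 1 was higher and 2 were lower, against 8.03% and 7.21% of all genes tested. The riser was Cd24a, a surface glycoprotein shared with Paneth and crypt base cells (1.04 ± 0.17), and the members that fell included Fyb (-0.93 ± 0.20), an adaptor that is also a blood cell gene. Dclk1, the tuft cell kinase, was at 5.75, 10.8, 3.8 and 4.4 CPM against 8.8, 8.86, 7.85 and 5.53 CPM, with overlapping groups and an adjusted p of 0.481. Chgb missed the threshold without unirradiated replicate 4 or irradiated replicate 3 (adjusted p up to 0.0595), Scg5 without unirradiated replicate 1 or 2 or irradiated replicate 2 (adjusted p up to 0.0597) and Tph1 without unirradiated replicate 1 or 4 or irradiated replicate 2 or 3 (adjusted p up to 0.0704).

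**Figure D2:**
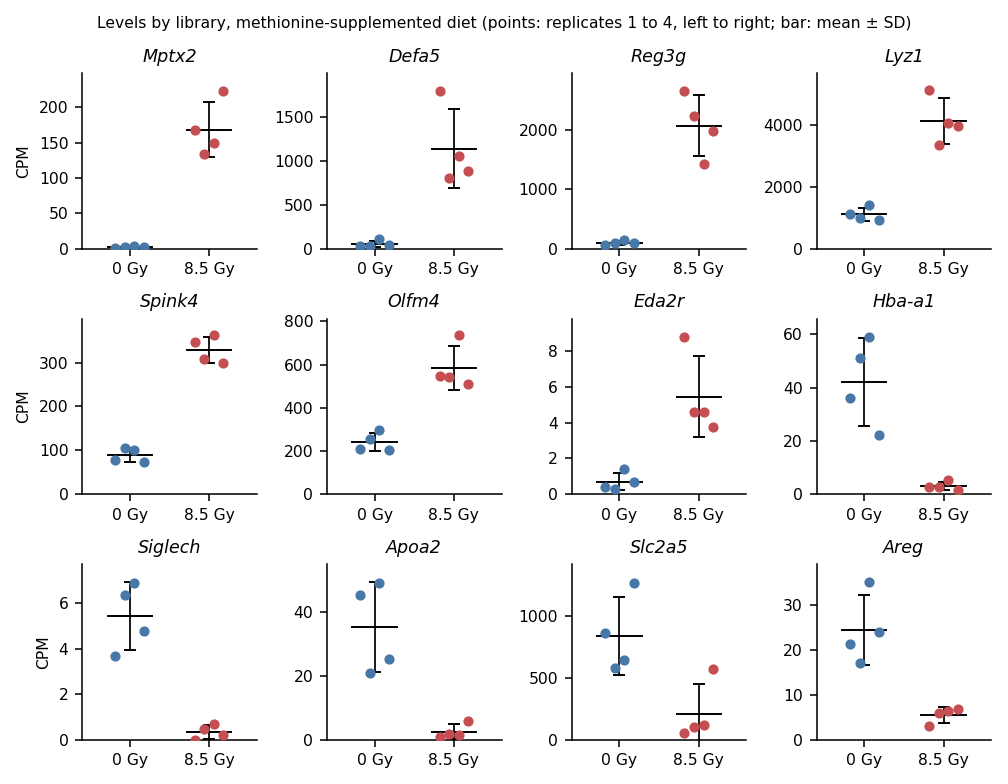
CPM of 12 genes in each of the 8 libraries of the supplemented diet, at 0 Gy (blue) and 8.5 Gy (red), on linear axes from 0 with the mean and SD (n = 4 per group). The doses do not overlap for any of the 12, and irradiated replicate 4 is the highest irradiated library for Apoa2 (5.91 CPM) and Slc2a5 (569.5 CPM).

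At the crypt base, 9 of 28 stem cell markers rose and 2 fell, with a median of 0.53. Olfm4, a secreted protein that marks crypt stem cells, was at 209, 257, 295 and 206 CPM without and 548, 542, 738 and 509.5 CPM with irradiation (1.27 ± 0.23, adjusted p = 0.00172). The lowest irradiated library, replicate 4, was well above the highest unirradiated one. Lgr5, the receptor that defines the cycling stem cells, was at 11.3, 14.2, 13.2 and 9.49 CPM and then 27.3, 25.9, 23.3 and 17 CPM, again with replicate 4 lowest among the irradiated (0.95 ± 0.24, adjusted p = 0.0127). Prom1, a membrane protein of crypt cells, rose by 1.22 ± 0.17, Slc12a2, a chloride cotransporter of the crypt, by 1.42 ± 0.22, Sox9, a transcription factor of crypt base cells, by 0.90 ± 0.21, and Gkn3 by 1.61 ± 0.38. Notum, which inactivates Wnt proteins, fell from 1.05, 0.823, 0.499 and 1.08 to 0, 0, 0.138 and 0.194 CPM, a level of a few counts per library (-3.04 ± 0.69, adjusted p = 0.00744). Hopx, a marker of slowly cycling cells, was the other member that fell (log2 -0.55, named as an exception). Paneth cells express several of these markers too, and the part of the Paneth genes in this result was not tested. Hopx missed the threshold without unirradiated replicate 1, 3 or 4 or irradiated replicate 2 (adjusted p up to 0.0785).

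Of 27 Wnt, Bmp, hedgehog and Notch pathway genes of the crypt niche, 3 were higher and 2 lower, against 8.03% and 7.21% of all genes. Wnt3, a ligand that Paneth cells supply to stem cells, rose from 2.37 ± 0.613 to 4.84 ± 0.774 CPM (1.03 ± 0.25). Wnt11 rose from near 0 (0, 0.206, 0 and 0 CPM) to 0.587, 1.75, 0.551 and 1.26 CPM. Ihh, the hedgehog ligand of differentiating epithelium, fell by 0.95 ± 0.23 on the log2 scale and Dll1, a Notch ligand of secretory progenitors, by 0.46 ± 0.13, both with overlapping doses. In the EGF family, Areg, a growth factor induced in injured epithelium, stood at 21.2, 17.1, 35.2 and 24.1 CPM without and at 2.93, 5.91, 6.27 and 6.88 CPM with irradiation. It was lower in all 4 irradiated libraries (-2.08 ± 0.36, adjusted p = 0.00138), whereas the receptor Egfr rose by 0.51 ± 0.11. Dll1 missed the threshold without unirradiated replicate 1 or irradiated replicate 1, 2 or 3 (adjusted p up to 0.0849).

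Among genes of dividing cells, none of 34 mitosis genes was called in the edgeR test (median 0.06), and 2 of 34 DNA replication genes were higher, among them Prim1, a primase subunit (0.73 ± 0.23). The replication count was 6 without irradiated replicate 4 and 1 without replicate 1, and 8.03% of all genes tested were higher. By unadjusted p under 0.05, 0 of the mitosis genes passed, and limma voom and DESeq2 called 0 and 0. Mki67, a protein of cycling cells, was at 188, 201, 214 and 178 CPM without and 304, 245, 225 and 141 CPM with irradiation (adjusted p = 0.6). Irradiated replicates 1, 2 and 3 were above and replicate 4 below the whole unirradiated range. For the replication list the mean log2 difference from the unirradiated mean was 0.37, 0.27, 0.21 and -0.29 in irradiated replicates 1 to 4. Of 52 replication-dependent histone genes, 3 were higher, among them Hist2h2ac (1.39 ± 0.20), and 1 without unirradiated replicate 1 or 2 or irradiated replicate 2 or 3. Prim1 missed the threshold without any unirradiated replicate or irradiated replicate 1, 2 or 3 (adjusted p up to 0.108).

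Markers of regenerating, fetal-like epithelium split. Of 25 tested, 9 were higher and 3 lower (median 0.24), and without unirradiated replicate 4 the higher count was 4. S100a6, a calcium-binding protein, was at 25.8, 21.2, 24.5 and 19.3 CPM and after irradiation at 59.3, 68.5, 64.7 and 71.3 CPM, without overlap (1.54 ± 0.23, adjusted p = 0.00039). Spp1, the matrix protein osteopontin, rose by 2.27 ± 0.52. Ly6a, the surface protein Sca-1, went the other way, from 46.5, 54.5, 49.7 and 45.8 to 18.8, 11.1, 11.2 and 11 CPM (-1.97 ± 0.42, adjusted p = 0.00627), as did Areg. Ly6a is also induced by interferons.

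Some targets of p53 rose, and most did not pass the test. Of 44 tested, 9 were higher and 1 lower (median 0.08), against 8.03% and 7.21% of all genes tested. The higher count was 8 to 10 with 1 library of this diet left out. Cdkn1a, the cell cycle inhibitor p21, was at 112, 57.8, 57.1 and 93.4 CPM without and 46.1, 53, 59 and 103 CPM with irradiation, and Mdm2, the ligase that degrades p53, at 41.2, 45, 53.3 and 38.6 and 34.6, 42, 41.9 and 46.1 CPM. Both overlapped between doses, with adjusted p of 0.573 and 0.731. Among the members that rose, Eda2r, a death receptor of the TNF receptor family, stood at 0.418, 0.308, 1.4 and 0.685 CPM without and 8.8, 4.57, 4.61 and 3.78 CPM with irradiation (2.86 ± 0.45, adjusted p = 0.000607). Phlda3, an inhibitor of Akt, rose by 1.5 ± 0.24, Zmat3, an RNA-binding p53 target, by 0.88 ± 0.16, Polk, a translesion polymerase, by 0.89 ± 0.17, Trp53inp1, a p53 cofactor, by 0.79 ± 0.17, and Apaf1, the scaffold of the apoptosome, by 0.56 ± 0.13. Tap1, the member that fell (log2 -0.76), also belongs to the MHC class I list. Tap1 missed the threshold without irradiated replicate 2 or 3 (adjusted p up to 0.0701).

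Of 36 double-strand break repair genes, 3 were higher and 1 lower, against 8.03% and 7.21% of all genes tested. Xrcc5, the larger Ku subunit, which binds DNA ends, was higher by 1.0 ± 0.18, Brca2, a factor of homologous recombination, by 0.95 ± 0.27, and Brip1, a helicase partner of Brca1, by 0.42 ± 0.10. Rnf8, a ubiquitin ligase of damage foci, was lower (-0.38 ± 0.12). Without irradiated replicate 4, 6 repair genes were higher and 0 lower. In the Bcl-2 family, 1 of 18 members rose and 1 fell (3 without irradiated replicate 4). Bcl2l15, a weakly pro-apoptotic member of gut epithelium, was at 0.732, 0.514, 1.2 and 1.27 CPM without irradiation and 42.3, 26.2, 26.8 and 32.6 CPM with it. Its rise of 5.06 ± 0.64 (adjusted p = 0.000219) was among the largest of all, while Bcl2l13, a mitochondrial member, fell by 0.48 ± 0.08 on the log2 scale. Brca2 missed the threshold without unirradiated replicate 1, 2 or 3 or irradiated replicate 1, 2 or 3 (adjusted p up to 0.0763) and Rnf8 without unirradiated replicate 1, 3 or 4 or any irradiated replicate (adjusted p up to 0.0996).

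Immediate early genes, which respond within minutes to growth factors or stress, were lower in part. Of 27 tested, 0 were higher and 6 lower, with a median of -0.60. Egr1, a zinc finger transcription factor, was at 52.8, 16.2, 68.2 and 157 CPM in unirradiated replicates 1 to 4 and at 13.8, 14, 12.9 and 8.34 CPM in the irradiated ones. The unirradiated libraries spread widely, while the irradiated ones lay together just below their minimum (-2.6 ± 0.66, adjusted p = 0.0182). Zfp36, which destabilizes cytokine messages, fell by 1.3 ± 0.26, Ier2 by 1.3 ± 0.30, Atf3, a stress transcription factor, by 1.46 ± 0.35 and Junb, an AP-1 subunit, by 1.0 ± 0.26 on the log2 scale. Without irradiated replicate 3 the lower count was 3, and without irradiated replicate 4 it was 9. The summed level of the list was 890 to 1878 CPM without irradiation on this diet and 608 to 1243 CPM with it. Egr1 missed the threshold without unirradiated replicate 4 or irradiated replicate 2 or 3 (adjusted p up to 0.0622) and Junb without unirradiated replicate 4 or irradiated replicate 3 (adjusted p up to 0.069). Ier2 stood at a log2 change of -0.83 without unirradiated replicate 4.

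Nearly all interferon-stimulated genes fell. These genes are switched on when type I or type III interferons bind their receptors and a complex of transcription factors with Stat2 and Irf9 assembles on an interferon-stimulated response element in the promoter. Of 58 tested members, 53 were lower and 0 higher, against 7.21% of all genes lower, and the median log2 fold change was -1.36. In 47 of the 58 the highest irradiated library was below the lowest unirradiated one, which held for 9.23% of all genes tested (the reverse, with no overlap and irradiated libraries higher, held for 9.43%).

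As examples of a motif found in part of these genes, promoter windows of 160 bases that end at the base before the transcription start are printed. They belong to 4 members that fell and were chosen among those that carry the motif. They come from RefSeq (GRCm38.p6) and are written 5′ to 3′ on the strand of the gene, and capitals mark GAAANNGAAA (N is any base), the core of the interferon-stimulated response element, or its reverse complement.
Ifit3 (chr19:34583369-34583528, plus strand): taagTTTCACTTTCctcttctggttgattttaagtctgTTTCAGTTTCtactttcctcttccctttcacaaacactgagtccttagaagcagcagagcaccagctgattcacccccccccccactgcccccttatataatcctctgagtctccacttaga
Ifit1 (chr19:34640729-34640888, plus strand): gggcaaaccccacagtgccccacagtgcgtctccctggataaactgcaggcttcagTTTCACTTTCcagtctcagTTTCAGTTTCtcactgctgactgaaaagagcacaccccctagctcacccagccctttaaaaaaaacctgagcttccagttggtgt
Isg15 (chr4:156200819-156200978, minus strand): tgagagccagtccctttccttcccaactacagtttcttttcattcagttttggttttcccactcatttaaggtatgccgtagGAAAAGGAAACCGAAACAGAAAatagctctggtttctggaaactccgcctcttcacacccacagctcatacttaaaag
Oas1g (chr5:120887614-120887773, minus strand): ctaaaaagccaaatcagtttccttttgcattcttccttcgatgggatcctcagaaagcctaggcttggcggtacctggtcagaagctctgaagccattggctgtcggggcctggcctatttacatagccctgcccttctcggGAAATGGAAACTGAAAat
The match starts 156 and 122 bases before the start in Ifit3, 104 and 85 in Ifit1, 78, 72 and 66 in Isg15, where 3 matches overlap, and 18 and 12 in Oas1g. Within 250 bases before the start, on either strand, the motif was found for 16 of 43 interferon-list genes with a promoter in the table (37.2%) and for 387 of 11127 genes tested with a promoter there (3.48%). Among genes called lower by more than 2-fold it was found for 33 of 220 (15.0%), and among those called higher by more than 2-fold for 11 of 256 (4.3%). Interferon-list genes were not taken out of these counts. A match is a description of the letters, not a site or a cause.

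Among the effectors of the antiviral response, Ifit3, which binds viral RNA together with Ifit1, was at 449, 341, 363 and 216 CPM without and 36.7, 18.4, 29.7 and 47.7 CPM with irradiation (-3.38 ± 0.40, adjusted p = 0.00012). Its near copy Ifit3b fell by 3.1 ± 0.29. Ifit1 itself went from 520.3, 396, 425 and 288 to 82.7, 93, 112 and 233 CPM, and irradiated replicate 4 came close to the lowest unirradiated library (-1.64 ± 0.28, adjusted p = 0.00121). Isg15, a ubiquitin-like protein joined to newly made proteins, was at 282, 193, 171 and 156 CPM and then at 22, 25, 32 and 87.5 CPM (-2.25 ± 0.38), again with irradiated replicate 4 highest of its group. Ifi44 fell from 163 ± 32.4 to 12.6 ± 3.94 CPM (-3.75 ± 0.84), Oas2, which makes the activator of the antiviral ribonuclease L, from 99.9 ± 21.4 to 10.3 ± 3.24 CPM (-3.27 ± 0.44), and Mx2, a GTPase that blocks viruses, from 27.3 ± 5.85 to 4.91 ± 0.716 CPM (-2.49 ± 0.23). Oas1g, a further 2′-5′-oligoadenylate synthetase with close relatives, fell by 2.01 ± 0.25 on the log2 scale. Isg15 stood at a log2 change of -2.91 without irradiated replicate 4.

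The factors of the pathway fell as well. Irf7, the factor that amplifies interferon production, was at 416, 364, 325 and 310.3 CPM without and 72.8, 91.8, 69.6 and 187 CPM with irradiation (-1.74 ± 0.26, adjusted p = 0.00037). Stat2 was at 151, 138, 122 and 120.1 and 52.2, 47.3, 44.1 and 65.9 CPM (-1.34 ± 0.14, adjusted p = 2.67e-05), without overlap between the doses. Irf9 fell by 0.44 ± 0.13, the smallest change among the called members. Adar, which edits double-stranded RNA, fell by 1.24 ± 0.13, Xaf1, a pro-apoptotic antagonist of IAP proteins, by 1.94 ± 0.20, and Slfn2, a Schlafen protein that protects transfer RNA in T cells, by 1.21 ± 0.14. Isg15, Irf7, Irf9 and Oas1g are named for their place in the pathway or the sequence they carry, outside the rule on p-values. Irf9 missed the threshold without unirradiated replicate 1 or 2 or irradiated replicate 2 or 3 (adjusted p up to 0.097).

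The unirradiated level of the list differed between the diets. Its summed level was 8372 ± 1064 CPM in the unirradiated supplemented group and 3187 ± 970.2 CPM in the irradiated one, against 4381 ± 447 and 2887 ± 488 CPM (mean ± SD over 4 libraries each) with the adequate diet. The 4 unirradiated supplemented libraries, at 6893 to 9416 CPM, lay above all unirradiated adequate ones, at 3922 to 4966 CPM. The irradiated groups of the diets overlapped, at 2675 to 4641 and 2451 to 3482 CPM. These sums were not tested. On the adequate diet, Ifi44 was at 22.6, 16.2, 39.6 and 20.6 CPM without and 6.02, 4.15, 3.17 and 76.3 CPM with irradiation, and Oas2 at 21.9, 26.1, 44.8 and 26.1 and 7.07, 8.71, 9.73 and 33.7 CPM. Irradiated replicate 4 of that diet stood far above the other 3 of its group for both genes.

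**Figure D3:**
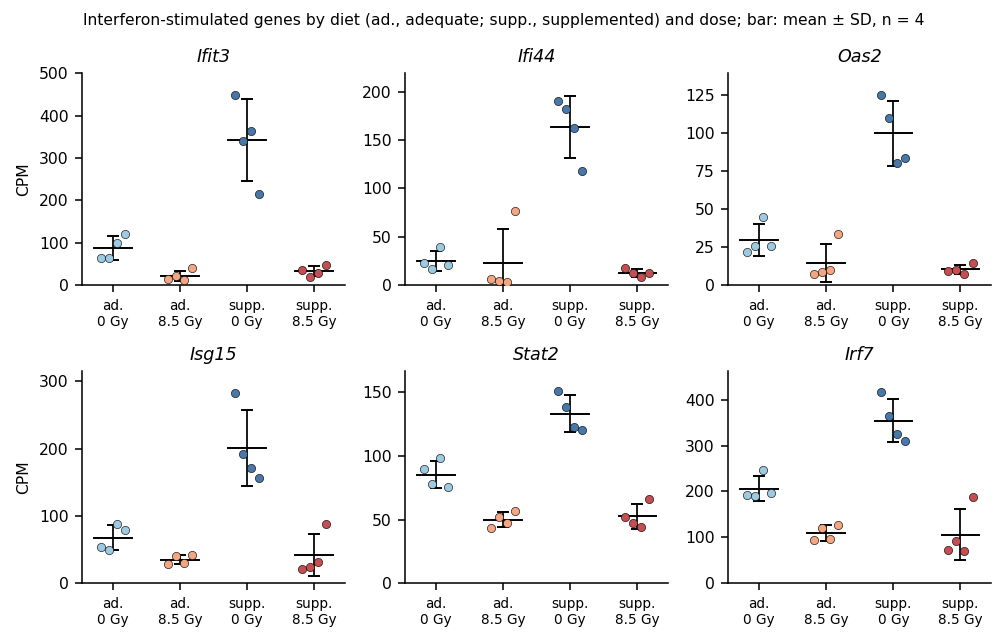
CPM of 6 interferon-stimulated genes in all 16 libraries, by diet and dose, on linear axes from 0 with the mean and SD (n = 4 per group). For each gene the unirradiated supplemented libraries are above the irradiated supplemented ones, as with Irf7 at 310 to 416 against 69.6 to 187 CPM.

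Genes induced by interferon gamma fell in part. Of 23 GTPases, chemokines and other targets, 8 were lower and 0 higher (median -0.68). Igtp, Irgm1 and Irgm2, GTPases that attack the vacuoles of intracellular parasites, fell by 1.46 ± 0.27, 1.34 ± 0.23 and 1.21 ± 0.21 on the log2 scale, and Gbp3, a guanylate-binding protein, by 1.3 ± 0.30. Irgm1 was at 124, 119.8, 111 and 84.9 CPM without and 56, 35.7, 34.6 and 48.1 CPM with irradiation, without overlap. Socs1, a feedback inhibitor of cytokine signalling, fell by 1.14 ± 0.27.

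In MHC class I presentation, 10 of 28 members were lower and 0 higher (median -0.49). Nlrc5, the transactivator of class I genes, stood at 34.2, 35.1, 26 and 25.3 CPM and after irradiation at 12.3, 9.53, 9.99 and 11.9 CPM, without overlap (-1.48 ± 0.21, adjusted p = 0.000333). The class I genes H2-T24, H2-T23 and H2-T22 fell by 1.88 ± 0.26, 0.96 ± 0.20 and 0.79 ± 0.15 on the log2 scale. H2 class I genes are alike in sequence, so their reads may be shared. The count was 20 (median -0.78) without irradiated replicate 4 and 6 without irradiated replicate 2 or 3. Of 17 class II genes, 4 were lower and 1 higher, with 2 lower without unirradiated replicate 2 or irradiated replicate 3 and 1 without irradiated replicate 2. Ifi30, a thiol reductase of antigen processing, fell by 0.79 ± 0.12 and Lgmn, a lysosomal protease, rose by 0.85 ± 0.19.

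Blood and immune cell genes changed by cell type. Hemoglobin messages fell strongly, with 5 of 10 erythroid members lower. Hba-a1, an alpha globin, was at 36, 51.2, 59.1 and 22.2 CPM without and 2.64, 2.55, 5.17 and 1.65 CPM with irradiation (-3.75 ± 0.35, adjusted p = 1.46e-05), and the lowest unirradiated library was still above every irradiated one. Hbb-bs, a beta globin, went from 123 ± 65.1 to 4.36 ± 4.98 CPM (-4.68 ± 0.69), and Alas2, the erythroid enzyme of heme synthesis, fell by 1.64 ± 0.39. Globin genes are near copies, and their reads may be shared. The platelet genes Pf4 and Ppbp, chemokines of platelet granules, rose by 2.03 ± 0.27 and 3.64 ± 0.58, 2 of 8 tested in their list. Ppbp was at 0.105, 0.206, 0.20 and 0 CPM without and 2.05, 1.48, 1.52 and 2.04 CPM with irradiation, 0 to 2 counts in each unirradiated library. Hbb-bs stood at a log2 change of -5.97 without irradiated replicate 3.

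Among myeloid genes 6 of 32 were higher and 7 lower. Siglech, a lectin of plasmacytoid dendritic cells, which make type I interferon, was at 3.66, 6.38, 6.89 and 4.79 CPM without and 0, 0.47, 0.689 and 0.194 CPM with irradiation (-3.65 ± 0.42, adjusted p = 6.42e-05). All irradiated libraries were below 1 CPM. Flt3, the growth factor receptor of dendritic cell precursors, fell by 1.96 ± 0.34, Cd209a, a lectin of monocyte-derived dendritic cells, by 1.88 ± 0.34, and Ly6c2, a marker of inflammatory monocytes and plasmacytoid cells, by 2.02 ± 0.27 on the log2 scale. Itgam, an integrin of macrophages and neutrophils, rose from 14.7 ± 3.9 to 32 ± 5.59 CPM (1.11 ± 0.20), and Lyz2, the lysozyme of macrophages and a near copy of the Paneth gene Lyz1, rose by 1.68 ± 0.27.

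Mast cell genes fell in 4 of 6 tested members. Mcpt1, a protease of mucosal mast cells, went from 4.18, 5.86, 8.99 and 4.6 to 1.17, 0.604, 0.344 and 0.872 CPM without overlap (-3.15 ± 0.41, adjusted p = 0.000152), and Mcpt2 fell by 2.85 ± 0.47. Il1rl1, the IL-33 receptor, and Cpa3, a granule protease, fell by 1.05 ± 0.28 and 1.72 ± 0.53, both with overlap, and the count was 2 without irradiated replicate 2. Kit, the stem cell factor receptor of mast cells and pacemaker cells, rose by 0.78 ± 0.18. Il1rl1 missed the threshold without unirradiated replicate 1 or irradiated replicate 2 (adjusted p up to 0.0679) and Cpa3 without unirradiated replicate 2, 3 or 4 or irradiated replicate 1, 2 or 4 (adjusted p up to 0.111). Mcpt2 stood at a log2 change of -3.47 without irradiated replicate 2.

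Some lymphocyte genes fell. Of 16 tested B cell and plasma cell genes 4 were lower and 1 higher (median -0.63, or -0.34 without unirradiated replicate 2). Jchain, the joining chain of secreted antibodies, was at 206, 262, 393 and 174 CPM and, with irradiation, at 162, 135, 139.7 and 118 CPM (-0.90 ± 0.26, adjusted p = 0.0265). Cd79a, a subunit of the B cell receptor, went from 1.38 ± 0.87 to 0.382 ± 0.164 CPM (-1.93 ± 0.59). No member was called lower without unirradiated replicate 2 or 3 or irradiated replicate 2 or 3, and 1 without irradiated replicate 4. Of 38 immunoglobulin variable segments tested, 9 were lower and 0 higher, with a median of -1.40. Of 28 T cell genes 3 were lower and 0 higher, against 7.21% and 8.03% of all genes tested. Cd8b1, the beta chain of the CD8 co-receptor, was at 2.61, 2.16, 1.7 and 2.84 CPM without and 0.587, 0, 0 and 0.194 CPM with irradiation (-4.38 ± 0.72, adjusted p = 0.00083), and Itgae, the integrin that holds T cells in the epithelium, fell by 0.87 ± 0.19. Cd3e, a subunit of the T cell receptor, was at 6.38, 6.48, 8.79 and 5.38 and 3.81, 4.83, 6.75 and 5.33 CPM with overlap (adjusted p = 0.378). Jchain missed the threshold without unirradiated replicate 2 or 3 or irradiated replicate 2 or 3 (adjusted p up to 0.0918) and Cd79a without unirradiated replicate 1, 2 or 3 or irradiated replicate 2, 3 or 4 (adjusted p up to 0.13). Cd8b1 stood at a log2 change of -5.19 without irradiated replicate 1.

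Of the supporting tissue, some fibroblast genes rose. Of 32 fibroblast and matrix genes 7 were higher and 0 lower (median 0.35), against 8.03% and 7.21% of all genes tested. Dcn, a proteoglycan that binds collagen, was at 67.8, 94.3, 104 and 57 CPM without and 283, 223, 249 and 181 CPM with irradiation (1.53 ± 0.20, adjusted p = 0.000164). Its groups were apart, as were those of Timp1, an inhibitor of matrix proteases, which rose by 2.47 ± 0.44 from under 1 CPM. Postn, a matrix protein of wounds, rose by 1.11 ± 0.24, and Mmp2, a gelatinase, by 0.88 ± 0.20. In the endothelial list 3 of 23 genes rose and 0 fell, against the same shares of all genes. The 3 were lymphatic: Mmrn1 (1.34 ± 0.24), Lyve1, a hyaluronan receptor (1.06 ± 0.21), and Prox1, the master factor of lymphatic fate (1.02 ± 0.29). Of 22 smooth muscle genes 0 were higher and 1 was lower, Mylk, the myosin light chain kinase (-0.57 ± 0.17), again against those shares. Without irradiated replicate 4, 2 were higher. None of 15 neural genes was called, with 2 at an unadjusted p under 0.05, 0 by limma voom and 0 by DESeq2. Prox1 missed the threshold without unirradiated replicate 1, 2 or 4 or irradiated replicate 1 or 3 (adjusted p up to 0.0778) and Mylk without unirradiated replicate 2, 3 or 4 or irradiated replicate 1, 2 or 3 (adjusted p up to 0.121).

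Exocrine pancreas genes, which mark tissue or secretions of a neighbouring organ, were also higher in 9 of 15 tested members (median 1.95). Several were near the limit of detection. Pnlip, pancreatic lipase, was at 0.209, 0.103, 0 and 0.0978 CPM without and 0.293, 1.28, 2.48 and 1.07 CPM with irradiation, and Ctrb1, a chymotrypsinogen, at 0.837, 0.514, 0.0999 and 0.685 and 0.88, 3.02, 4.89 and 3.49 CPM. The list's summed level was 916 to 1803 CPM without and 768 to 1489 CPM with irradiation, so that the doses overlapped. Clps, colipase, and Rnase1, the pancreatic ribonuclease, which carried higher levels, rose by 0.91 ± 0.16 and 2.13 ± 0.27. The count was 2 with a stricter filter or in the 8 libraries alone, 5 without unirradiated replicate 1, 3 or 4 or irradiated replicate 2, and 3 without irradiated replicate 3.

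Counts of changed absorptive enterocyte genes depended on the libraries compared. Of 45 tested, 2 were higher and 3 lower (median 0.01), against 8.03% and 7.21% of all genes tested. Without irradiated replicate 4, 10 were lower and the median was -0.29, and 1 was lower without unirradiated replicate 1 or 4 or irradiated replicate 1, 2 or 3. The irradiated libraries differed among themselves, and the mean log2 difference from the unirradiated mean was -1.02 in irradiated replicate 1, -0.19 in replicate 2, -0.18 in replicate 3 and 0.59 in replicate 4. Alpi, the brush border alkaline phosphatase, was at 834, 1012, 728 and 904 CPM without and 322, 1328, 1216 and 1178 CPM with irradiation (adjusted p = 0.732). Irradiated replicate 1 was below and the other 3 above the whole unirradiated range. Ribosomal protein genes had the opposite order, at 0.83, 0.64, 0.54 and 0.02. Paneth genes did not follow it, at 1.88, 1.38, 1.69 and 1.77. The share of villus in each piece of tissue was not recorded, and its part in these results was not tested.

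**Figure D4:**
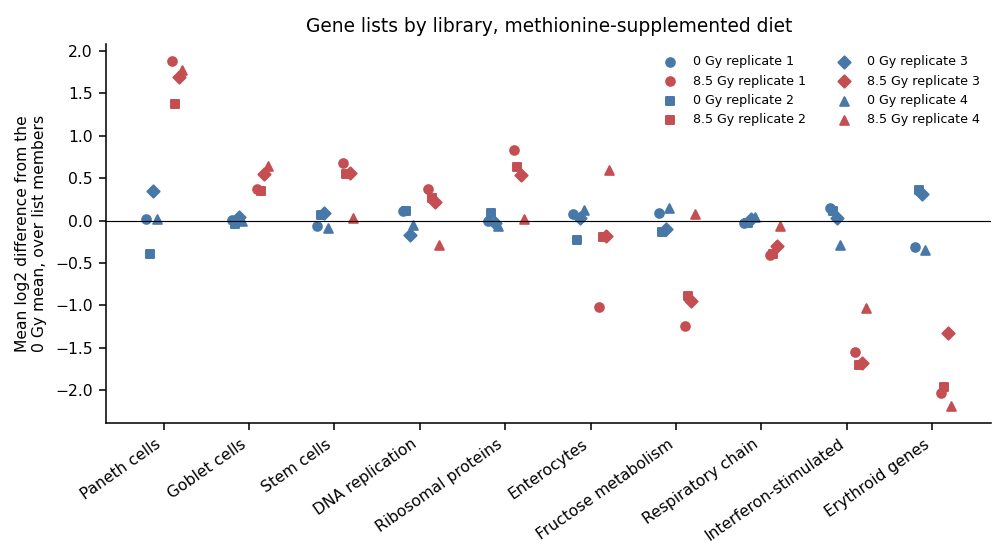
Mean log2 difference from the mean of the unirradiated supplemented libraries over the tested members of 10 gene lists, for each of the 8 libraries (blue, 0 Gy; red, 8.5 Gy; symbol shape, replicate). The irradiated libraries lie together for Paneth cell genes (1.38 to 1.88) and far apart for enterocyte genes (-1.02 to 0.59).

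Within the absorptive program, single genes changed strongly. Apoa2, an apolipoprotein of high-density lipoprotein, was at 45.3, 21, 49.2 and 25.4 CPM without and 0.88, 1.81, 1.31 and 5.91 CPM with irradiation (-3.75 ± 0.53, adjusted p = 0.000482), with no overlap. Cd36, a fatty acid transporter, was higher in all irradiated libraries (109.5 ± 23.1 against 333 ± 84.9 CPM, 1.6 ± 0.39), and so was Enpep, a brush border peptidase (1.22 ± 0.38). Plin2, which coats lipid droplets, fell by 1.12 ± 0.21 and Nr0b2, a nuclear receptor induced by bile acids, by 2.86 ± 0.60. Of 29 genes listed for fatty acid oxidation 3 were higher and 1 lower, and of 39 xenobiotic metabolism genes 2 and 2. Over all genes tested 8.03% were higher and 7.21% lower. With 1 library left out the higher counts were 0 to 6 and 1 to 5. Cyp4a10, a fatty acid hydroxylase of the first list, rose by 3.01 ± 0.83. In the second, Ugt1a1, which conjugates bilirubin, rose by 0.94 ± 0.25. The other called members of that list had log2 changes of 1.39, -1.59 and -1.47. Enpep missed the threshold without any unirradiated replicate or any irradiated replicate (adjusted p up to 0.0992) and Cyp4a10 without any unirradiated replicate or irradiated replicate 1 or 2 (adjusted p up to 0.101). Apoa2 stood at a log2 change of -4.57 and Nr0b2 at -3.96 without irradiated replicate 4.

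Genes of fructose handling fell in 8 of 25 members and rose in 2 (median -0.43). Slc2a5, the fructose transporter GLUT5, was at 861, 576, 640.3 and 1267 CPM without and 50.2, 101, 114 and 569.5 CPM with irradiation (-2.0 ± 0.57, adjusted p = 0.0294). Irradiated replicate 4 came within a few CPM of the lowest unirradiated library. Khk, the kinase that commits fructose to breakdown, showed the same order, at 290.3, 247, 273 and 331 and 48.4, 59, 62.4 and 222 CPM (-1.53 ± 0.37). Mlxipl, the sugar-responsive transcription factor ChREBP, fell by 1.42 ± 0.23 on the log2 scale, with all irradiated libraries below the unirradiated ones (177, 136, 108 and 209 against 53.4, 53, 51.6 and 77.8 CPM). Gpd1, which links sugar and lipid metabolism, fell by 1.31 ± 0.28, and Me1, which supplies NADPH, rose by 1.1 ± 0.27. The lower count was 3 without unirradiated replicate 1 or 4 or irradiated replicate 2 or 3. It was 4 without irradiated replicate 1, 5 without unirradiated replicate 3 and 12 without irradiated replicate 4. The list's mean differences by irradiated library, -1.25, -0.89, -0.94 and 0.07, were lowest in replicate 1 and highest in replicate 4, and the median was -0.78 without irradiated replicate 4. Slc2a5 missed the threshold without unirradiated replicate 1 or 4 or irradiated replicate 1, 2 or 3 (adjusted p up to 0.0876). Khk stood at a log2 change of -2.33 and Slc2a5 at -3.23 without irradiated replicate 4.

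Cholesterol synthesis genes, which the factor Srebf2 controls, were lower in 10 of 27 members and higher in 1 (median -0.38). Insig1, the sterol sensor that holds Srebf2 back, was at 318, 160.1, 169 and 271 CPM without and 58.1, 69.7, 59.1 and 122 CPM with irradiation, without overlap (-1.57 ± 0.32, adjusted p = 0.00449). Dhcr7, the last enzyme of the pathway, fell by 1.0 ± 0.18, Fdps, an enzyme of the mevalonate branch, by 0.68 ± 0.15, and Srebf2 by 0.60 ± 0.13. Abca1, which exports cholesterol, rose by 1.6 ± 0.40. The lower count was 5 without unirradiated replicate 4 or irradiated replicate 2 and 6 without irradiated replicate 3. In iron handling, 2 of 19 genes rose and 3 fell, against 8.03% and 7.21% of all genes tested. The higher count was 4 without unirradiated replicate 2 or irradiated replicate 4. The lower count was 1 without unirradiated replicate 2, 3 or 4 or irradiated replicate 1 or 2. Cybrd1, the ferric reductase of the brush border, rose by 1.08 ± 0.21, Slc39a14, a metal transporter, fell by 0.80 ± 0.18, and Fth1, the heavy chain of ferritin, fell from 3279 ± 473 to 1669.6 ± 609 CPM (-0.97 ± 0.29). Fth1 missed the threshold without unirradiated replicate 2, 3 or 4 or irradiated replicate 1, 2 or 3 (adjusted p up to 0.0839).

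Of 37 methionine cycle, transsulfuration and polyamine synthesis genes, 2 were higher and 3 lower (median 0.04), against 8.03% and 7.21% of all genes tested. Without irradiated replicate 4, 6 were higher and 5 lower (median 0.13), and 1 was lower without irradiated replicate 2 or 3. Mat2a, which makes S-adenosylmethionine, was at 82.9, 93.6, 74.8 and 76.5 CPM without and 107, 85.4, 78.4 and 59.6 CPM with irradiation, a difference of 0.01 ± 0.14 (adjusted p = 0.99). Bhmt, which remethylates homocysteine with betaine, did not pass the filter. Sqor, which oxidizes hydrogen sulfide, rose from 15.8, 26.1, 20.1 and 19.4 to 56.6, 65.7, 59.9 and 42.8 CPM without overlap (1.47 ± 0.24, adjusted p = 0.00093). Cbs, which starts transsulfuration, rose from 0.282 ± 0.212 to 1.24 ± 0.226 CPM (2.07 ± 0.61), and Cth, the next enzyme, fell by 0.41 ± 0.11 on the log2 scale. Azin1, which protects ornithine decarboxylase, and Odc1, ornithine decarboxylase, fell by 0.74 ± 0.16 and 0.45 ± 0.14. Cbs missed the threshold without unirradiated replicate 1, 3 or 4 or irradiated replicate 1, 2 or 3 (adjusted p up to 0.087), Cth without unirradiated replicate 3 or irradiated replicate 2 or 3 (adjusted p up to 0.0831) and Odc1 without unirradiated replicate 1 or 2 or irradiated replicate 1, 2 or 3 (adjusted p up to 0.145).

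Among 25 folate genes, 2 rose and 1 fell (5 higher without irradiated replicate 4), against 8.03% and 7.21% of all genes tested. Ggh, which trims stored folate, rose by 1.15 ± 0.19, and Aldh1l1, which consumes formyl-folate, fell by 0.90 ± 0.24. Of 21 genes that write, read or erase DNA methylation 2 rose and 0 fell, against those shares of all genes. The methyl-CpG reader Mbd2 rose by 0.37 ± 0.10. The count was 4 without irradiated replicate 4 and 0 without unirradiated replicate 1 or irradiated replicate 2. Dnmt1, the maintenance methyltransferase, was at 73.3, 76.3, 73 and 63.2 and 93.3, 79.5, 83.3 and 49.8 CPM (adjusted p = 0.769). Glutathione and NRF2 target genes went both ways, 6 of 42 higher and 7 lower. Gpx2, the glutathione peroxidase of the crypt, was at 36.1, 49.5, 25.3 and 27.9 CPM without and 120.3, 90.4, 88.8 and 57.7 CPM with irradiation (1.36 ± 0.24, adjusted p = 0.00144). Prdx1, a peroxiredoxin, rose by 0.68 ± 0.14, while Gstp1, a glutathione transferase, Txn1, thioredoxin, and Keap1, the inhibitor of NRF2, fell by 0.82 ± 0.15, 0.71 ± 0.14 and 0.68 ± 0.11. The lower count was 4 without irradiated replicate 2 and 11 without irradiated replicate 4. Aldh1l1 missed the threshold without unirradiated replicate 4 or irradiated replicate 2 or 3 (adjusted p up to 0.0661) and Mbd2 without unirradiated replicate 1, 2 or 4 or irradiated replicate 2 or 3 (adjusted p up to 0.0955).

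Stress genes of the ATF4 pathway, which senses amino acid shortage, were divided as well, 4 of 32 higher and 4 lower. Asns, asparagine synthetase, rose from 18.8 ± 2.4 to 38.6 ± 11.3 CPM (1.01 ± 0.18), and Eif4ebp1, a brake on translation, rose by 1.11 ± 0.24. Ddit3, the factor CHOP, fell by 0.88 ± 0.18 and Aldh18a1, which makes proline precursors, by 1.17 ± 0.23. The higher count was 7 without irradiated replicate 4. Of 30 endoplasmic reticulum chaperone genes 0 rose and 3 fell, against 8.03% and 7.21% of all genes tested. Syvn1, a ubiquitin ligase of that compartment, fell by 0.66 ± 0.15. Ero1l, an oxidase for disulfide bonds, fell by 0.57 ± 0.13 and Ern1, a sensor of unfolded proteins, by 0.51 ± 0.15. The lower count was 5 without unirradiated replicate 3, and 2 were higher without irradiated replicate 4. Ern1 missed the threshold without unirradiated replicate 1, 2 or 4 or irradiated replicate 1, 2 or 3 (adjusted p up to 0.0871).

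Small nucleolar and mitochondrial RNA took larger shares of the irradiated libraries. Small nucleolar and Cajal body RNAs, which guide the modification of ribosomal and spliceosomal RNA, took 3.15%, 4.75%, 5.07% and 3.29% of counts in unirradiated replicates 1 to 4 and 14.2%, 11.2%, 12.4% and 7.75% in the irradiated ones. The groups did not overlap, with means of 4.07 ± 0.987% and 11.4 ± 2.70% (SD, n = 4 per group). Nuclear protein-coding genes took 78.2 ± 2.22% and 67.9 ± 4.89%, mitochondrial messenger RNAs 1.82 ± 0.176% and 2.80 ± 0.501%, and mitochondrial transfer RNAs 0.998 ± 0.108% and 1.39 ± 0.236%. Each of these differences had an exact two-sided permutation p of 0.0286, the smallest that 4 against 4 allow, and 0.0571 after adjustment over 10 classes. Mitochondrial ribosomal RNAs took 2.17 ± 0.395% and 2.19 ± 0.703% (exact p = 0.943). The libraries were built with a small RNA protocol on fragmented RNA, and the part of fragment size in these shares was not tested.

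**Figure D5:**
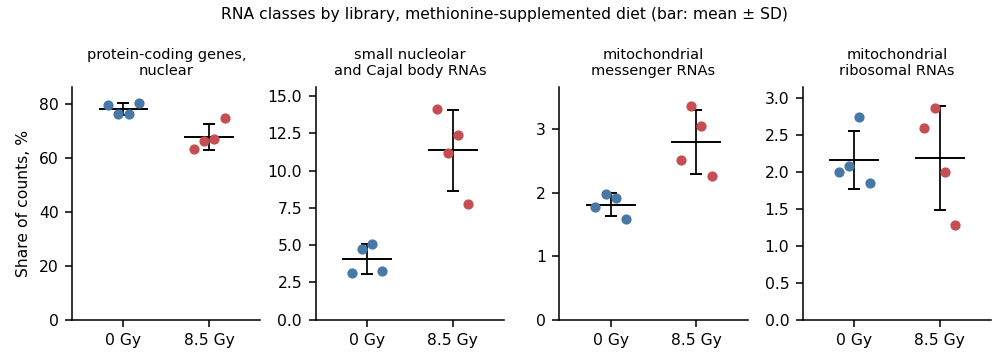
Share of counts (%) in 4 RNA classes in each of the 8 libraries of the supplemented diet, with the mean and SD (n = 4 per group), on axes from 0. Irradiated replicate 4 is the nearest of its group to the unirradiated libraries for protein-coding genes (74.9%) and small nucleolar and Cajal body RNAs.

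Of 71 C/D box small nucleolar RNAs, which guide 2′-O-methylation of RNA, 47 were higher and 2 lower (median 1.07), and of 46 H/ACA box RNAs, which guide pseudouridylation, 15 and 1 (median 0.45). Without irradiated replicate 2 the higher H/ACA count was 9, and without irradiated replicate 4 it was 18. Sequences of 5 C/D box RNAs among the 6 called higher with the smallest p are printed to show the boxes (GENCODE M21, GRCm38). Box C (TGATGA) and box D (CTGA) are in capitals. Only RNAs in which both were found could be printed.
Snord87 (chr1:9942463-9942549, minus strand): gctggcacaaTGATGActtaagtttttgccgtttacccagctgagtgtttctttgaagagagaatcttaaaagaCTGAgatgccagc
Snord47 (chr1:161038082-161038158, plus strand): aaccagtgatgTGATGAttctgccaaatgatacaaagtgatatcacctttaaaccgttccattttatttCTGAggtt
Snord32a (chr7:45127382-45127464, minus strand): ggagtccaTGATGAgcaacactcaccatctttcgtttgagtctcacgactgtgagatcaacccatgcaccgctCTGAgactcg
Snord66 (chr16:20684239-20684313, plus strand): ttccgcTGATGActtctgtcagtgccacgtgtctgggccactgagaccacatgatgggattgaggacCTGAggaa
Snord4a (chr11:78181686-78181756, minus strand): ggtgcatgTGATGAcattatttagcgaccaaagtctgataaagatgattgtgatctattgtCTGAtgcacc
Of 72 listed C/D box RNAs with a sequence, 47 had TGATGA within the first 25 bases and CTGA within the last 25, and 69 lay inside a gene on the same strand. Snord87 was at 244, 333, 441 and 263 CPM without and 1807, 1872, 1894 and 1164 CPM with irradiation (2.39 ± 0.30, adjusted p = 0.000136). Snord47, inside Gas5, and Snord32a, inside Rpl13a, rose by 2.25 ± 0.30 and 2.51 ± 0.33, Snord66, inside Eif4g1, by 1.56 ± 0.24, and Snord4a, inside Rpl23a, by 1.07 ± 0.16.

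The genes that host these RNAs rose in part. Gas5, a non-coding host, was at 89.8, 93.5, 84.8 and 73.1 CPM without and 233, 165, 167 and 116 CPM with irradiation (0.99 ± 0.19), Rpl23a rose by 0.74 ± 0.24, and neither Rpl13a (0.34 ± 0.20, adjusted p = 0.273) nor Eif4g1 (-0.13 ± 0.12, adjusted p = 0.497) was called. Of 48 host genes of C/D box RNAs tested, 15 were higher and 1 lower, with a median of 0.33. Rpl13a, Rpl23a and Eif4g1 are named only as hosts of the printed RNAs. RSEM can split reads between a small RNA and the host that overlaps it, so that single values of either are uncertain. Of 16 listed small nuclear and other structural RNAs tested, 5 were higher and 1 lower (median 0.63). Among them Terc, the RNA of telomerase, rose by 1.0 ± 0.23, and Rnu12, a small nuclear RNA of the minor spliceosome, by 1.51 ± 0.26. Over all 54 tested genes of the type small nuclear RNA, 4 were higher and 4 lower (median -0.06). Rpl23a missed the threshold without any unirradiated replicate or irradiated replicate 1, 2 or 3 (adjusted p up to 0.154). Rpl13a passed the threshold without irradiated replicate 4 (adjusted p = 0.00931).

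Genes of cytosolic ribosomes rose in part, and genes of mitochondrial ribosomes fell in part. Of 82 cytosolic ribosomal protein genes 38 were higher and 2 lower (median 0.60). Rpl5, a large subunit protein that also restrains Mdm2, was at 79.7, 127, 188 and 125 CPM without and 437, 427, 519 and 276 CPM with irradiation (1.68 ± 0.30, adjusted p = 0.00163), and Rps28 and Rpl11 rose by 1.02 ± 0.14 and 0.94 ± 0.16. Many pseudogenes copy these genes, so their reads may be shared. The higher count was 20 to 24 without unirradiated replicate 1 or 4 or irradiated replicate 1 or 2, and 55 without irradiated replicate 4. Of 77 mitochondrial ribosomal proteins 0 were higher and 17 lower (median -0.20), such as Mrps34 (-0.71 ± 0.13) and Mrpl35 (-0.62 ± 0.14), and the lower count was 9 to 11 without unirradiated replicate 1 or 2 or irradiated replicate 2 or 3.

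For the respiratory chain, most messages from mitochondrial DNA rose and a share of those from nuclear genes fell. Of 13 messages encoded in mitochondrial DNA, 11 were higher and 0 lower (median 1.08). mt-Nd6, a subunit of complex I, was at 105, 93.4, 128 and 106 CPM without and 293, 361, 325 and 234 CPM with irradiation (1.48 ± 0.16, adjusted p = 3.03e-05). Of 80 nuclear-encoded subunits 2 were higher and 29 lower (median -0.31). Sdhc, a subunit of complex II, fell by 0.80 ± 0.14, Ndufa9, of complex I, by 0.59 ± 0.10, and Atp5g1, a subunit of the ATP synthase rotor, from 65, 54.4, 55.5 and 91.6 to 30.8, 24.8, 23 and 33.2 CPM (-1.26 ± 0.21). The lower count was 14 without irradiated replicate 2 and 41 without irradiated replicate 4.

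The same dose comparison was made on the adequate diet. There, 1180 genes (7.13%) were higher and 1090 (6.58%) lower after irradiation (690 to 1273 and 541 to 1205 with 1 of its libraries left out, the fewest without irradiated replicate 1). Of the genes higher on the supplemented diet 54.3% were also higher on the adequate diet, which is 61.2% of those higher there, and of the lower genes 51.3% were also lower there (56.1%). Cela2a, a pancreatic elastase, was called in opposite directions (1.85 and -1.71) and is named for that, although its adequate call was lost without unirradiated replicate 1, 3 or 4 or irradiated replicate 1, 2 or 4 of that diet (adjusted p up to 0.2). The Paneth list had 22 of 26 members higher on the adequate diet (median 1.53) and the interferon-stimulated list 20 of 58 lower (median -0.55), with 11 lower without its irradiated replicate 1 and 29 without its irradiated replicate 4. On the supplemented diet Cela2a missed the threshold without unirradiated replicate 1, 3 or 4 or irradiated replicate 2, 3 or 4 (adjusted p up to 0.11). Its log2 change there was 2.54 without unirradiated replicate 2.

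The diet by radiation interaction, that is, the supplemented response less the adequate one, tests the difference itself. No gene passed it at an adjusted p under 0.05 in edgeR, while 738 (4.46%) had an unadjusted p under 0.05, 420 (2.54%) of them with the more negative response on the supplemented diet (624 to 1168 and 362 to 718 with 1 library left out). DESeq2 called 2 genes, Trim30a and Gm4070, limma voom none, and edgeR without irradiated replicate 4 of the supplemented diet called Usp18 and Spats2l. All 4 had the more negative response on the supplemented diet and were named after their values were seen. Trim30a and Usp18 are members of the interferon-stimulated list. Of its 58 members 36 had an unadjusted interaction p under 0.05 in that direction and 1 in the other, which held 318 (1.92%) of all genes, with a median interaction of -0.81. Without irradiated replicate 4 of the adequate diet the count was 23 and the median -0.59. For Ifi44 the response was -3.75 ± 0.84 on the supplemented and -0.06 ± 0.77 on the adequate diet, an interaction of -3.69 ± 1.12 (unadjusted p = 0.00572). That adequate value rested on its irradiated replicate 4: without it the adequate response of Ifi44 was -2.46 (adjusted p = 0.000764) and the interaction -1.3 (unadjusted p = 0.0139). Oas2 had an interaction of -2.31 ± 0.60 (0.0017), or -1.44 without that library, and Nlrc5 -1.36 ± 0.30 (0.000358).

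In edgeR with all 16 libraries no interaction outside the interferon-stimulated list passed adjustment either, and some genes are named for their size. Ly6a was at 11.4 ± 4.93 CPM without and 13.8 ± 11.9 CPM with irradiation on the adequate diet (log2 0.32 ± 0.43, adjusted p = 0.678), and the interaction was -2.29 ± 0.59 (unadjusted p = 0.00171), or -1.4 without irradiated replicate 4 of the adequate diet. Areg responded by -2.08 ± 0.36 on the supplemented and -0.03 ± 0.37 on the adequate diet (interaction -2.04 ± 0.51, unadjusted p = 0.00104). Without irradiated replicate 1 of the adequate diet these were -0.71 for the adequate response and -1.37 for the interaction. Of the 27 immediate early genes, 14 had an unadjusted interaction p under 0.05 downwards and 0 upwards, against 2.54% and 1.92% of all genes. Without unirradiated replicate 4 of the supplemented diet, 9 passed downwards. On the adequate diet 2 members were higher (0 to 3 with 1 of its libraries left out) and 0 lower (median 0.30). The list's summed level there was 951 ± 86.8 CPM without and 1170.5 ± 200 CPM with irradiation (mean ± SD). On the supplemented diet it was 1380 ± 410 and 957 ± 262 CPM, and these sums were not tested. Reg3b rose on both diets, by 5.59 ± 0.47 and 7.49 ± 0.51 (interaction -1.9 ± 0.55, unadjusted p = 0.00313). In the pancreas list the interaction passed an unadjusted p of 0.05 upwards in 8 of 15 members, at the low levels given above. B cell and plasma cell genes fell in 10 of 16 members on the adequate diet (median -1.39, and 5 members without its unirradiated replicate 4 or irradiated replicate 1) and in 4 on the supplemented one, with 1 member past an unadjusted interaction p of 0.05.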

How the data were processed

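RNA from the proximal jejunum was depleted of ribosomal RNA, fragmented and made into libraries with a small RNA protocol, per the labels' protocols. The submitters' processing notes name Bowtie2 2.2.9, RSEM 1.3.0, edgeR 3.2.4 and genome build NCBIM37. The deposited values used are RSEM expected counts per gene, per the file headers, and they were rounded to whole numbers. RSEM divides ambiguous reads among genes, which makes near-identical genes and small RNAs within hosts uncertain.

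Each of the 16 files lists 37620 Ensembl gene IDs. GENCODE M21 gave a symbol for 32897 of them, and the 4723 without one stayed in the tests and held 4.4 to 8.41% of a library's counts. GENCODE M21 (GRCm38) and the RefSeq promoter table (GRCm38.p6) belong to another build than the submitters name, so that they served for names, types and the printed sequences, with their own positions.

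Groups were taken from the labels, and replicate numbers follow accession order and pair nothing. Genes were kept with filterByExpr of edgeR 4.0.16 (R 4.3.3) and scaled with TMM. A quasi-likelihood model with robust dispersions and a mean per group was fitted to all 16 libraries, which share 1 estimate of spread. The contrasts were 8.5 Gy minus 0 Gy on the supplemented diet, the same on the adequate diet, and their difference, each with Benjamini-Hochberg adjustment over 16558 genes and a threshold of 0.05. SEs were derived from the F statistic. Shares of RNA classes were compared with exact two-sided permutation tests. Between libraries of 1 supplemented group the correlation of log2 CPM was 0.922 to 0.983. The chi-square per degree of freedom between their counts was at least 10.3, where counting error alone gives about 1, so none was a copy.

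The genes named were the 12 largest rises and falls whose libraries did not overlap and whose log2 CPM averaged 1 or more, up to 6 called members with the smallest p of each of 58 lists, and a set of marker genes. Others are said to be named for another reason, and some genes under the rule are not reported here. The members and lists were chosen with earlier results of these data known. Alternatives used DESeq2 1.42.0, limma 3.58.1, other filters, scalings and thresholds, and leaving out libraries. On simulated counts with 200 changed genes the edgeR test called 10% of genes changed 1.5-fold, 70% at 2-fold, 94% at 4-fold and 98% at 8-fold, and 14 of its 150 calls were genes left unchanged. In the data 2523 genes (15.2%) were called, so these percentages may not carry over.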

Additional observations from a re-analysis of the deposited data

Results flagged for a closer look

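A library is given here where the gap between it and its nearest neighbour took more of the range of its group than Dixon's critical value for 4 libraries allows. 33 of 418 groups of 4 values passed, and chance passes about 1 in 20 groups. Of these, 16 were irradiated replicate 4 and 5 irradiated replicate 1, the libraries at the ends of their group on the first principal component, and each of the other 6 libraries had 1 to 3. Genes of a pathway move together, so that these values are not independent. Values are in CPM, with the range of the other 3 libraries of the group.

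Irradiated replicate 4 was the highest of its group for Aldh18a1 (271 against 171 to 177), Defa23 (12.7 against 0), Dhcr7 (32.4 against 17 to 18.6), H2-T23 (301 against 139.7 to 165) and Irgm2 (49.6 against 26.4 to 29.2). The same held for Isg15 (87.5 against 22 to 32), Khk (222 against 48.4 to 62.4), Mlxipl (77.8 against 51.6 to 53.4), Sdhc (149 against 103 to 105) and Slc2a5 (569.5 against 50.2 to 114). The same held for Spats2l (31.3 against 16.1 to 17.9) and Usp18 (43.8 against 14.5 to 19.4). Irradiated replicate 4 was the lowest of its group for Lgmn (90.3 against 126 to 132), Retnlb (153 against 259 to 279), Snord4a (53.4 against 81.6 to 87.4) and Snord87 (1164 against 1807 to 1894). Irradiated replicate 1 was the highest of its group for Eda2r (8.8 against 3.78 to 4.61), Ly6a (18.8 against 11 to 11.2) and Mmp7 (175 against 112 to 119.7). Irradiated replicate 1 was the lowest of its group for Alpi (322 against 1178 to 1328) and Timp1 (0.88 against 1.72 to 1.75). Irradiated replicate 2 was the lowest of its group for Mptx1 (40.5 against 55.8 to 59). Irradiated replicate 3 was the highest of its group for Olfm4 (738 against 509.5 to 548).

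Unirradiated replicate 4 was the highest of its group for Brip1 (18.2 against 15 to 15.4). Unirradiated replicate 4 was the lowest of its group for Il1rl1 (9.0 against 19.5 to 19.8) and Slfn2 (29.5 against 37.7 to 39.2). Unirradiated replicate 1 was the highest of its group for Dll1 (56.8 against 47.8 to 48.8) and Keap1 (86.5 against 73.2 to 74.6). Unirradiated replicate 2 was the highest of its group for Timp1 (0.514 against 0.196 to 0.209) and Wnt11 (0.206 against 0). Unirradiated replicate 3 was the highest of its group for Trp53inp1 (27.3 against 16.3 to 18.1) and Ugt1a1 (176 against 159.7 to 162). MicroRNA genes took 0.0548% of counts in unirradiated replicate 3 and 0.071 to 0.0733% in the other 3 unirradiated libraries.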

How the results depend on the processing

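Changes below 2-fold were often missed on simulated counts, in which fewer genes were changed than were called in the data. Of 187 genes named and called, 163 were tested under all 18 alternatives, and 126 of these kept their call in all. With the genes that a setting left out (at least 15 alternatives each), 144 kept it wherever they were tested, and none changed direction. The calls lost numbered 43 at an adjusted p under 0.01, 16 without the 3 libraries under 4 M counts, 13 with the 8 supplemented libraries alone, 10 without a filter, 6 with limma voom and 0 with DESeq2, RLE size factors or no robust dispersions. Protein-coding genes alone and the stricter filter lost 0 of the genes tested there, but 12 and 13 of the named ones were not tested there, and 9 were not tested in the 8 libraries alone. At an adjusted p under 0.01, 577 genes were higher and 465 lower. Leaving out each supplemented library in turn gave 805 to 1821 higher and 627 to 1806 lower genes, and 5 to 27 of the named calls were lost. The other settings gave 1029 to 1501 higher and 874 to 1396 lower genes. Among the called genes 49.8 to 56.3% were higher in all settings (52.7% as reported). The interaction with the more negative response on the supplemented diet was called for 2 genes with DESeq2 and for 0 to 2 with a library left out, and it could not be computed from the supplemented libraries alone. At an unadjusted p under 0.05, DESeq2 gave 705 genes and limma voom 780. Leaving out a library of the adequate diet, an alternative chosen after seeing the data, called 0 genes for the interaction in edgeR, with 624 to 1070 at an unadjusted p under 0.05. Shares of RNA classes moved by less than the larger of the SDs of the dose groups in every alternative run. No paired analysis was possible because replicate numbers follow accession order and pair no libraries.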
